A study of Mus musculus with 2 samples.

Results

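The Hox cluster genes are 39 of the 31053 genes in the deposited count tables, chosen by symbol alone: Hoxa, Hoxb, Hoxc or Hoxd followed only by digits. They comprised 11 members of HoxA on chromosome 6, 10 of HoxB on chromosome 11, 9 of HoxC on chromosome 15 and 9 of HoxD on chromosome 2. By paralog number, the place of a gene along its cluster, 8 had numbers 1 to 3, 15 had 4 to 8 and 16 had 9 to 13. The study profiled fibro/adipogenic progenitors (FAPs), the Pdgfra-expressing mesenchymal cells between muscle fibers, from limb muscles of C57BL/6 mice at 3 weeks of age by droplet scRNA-Seq. Controls were Bap1f/f mice (Bap1WT), whose Bap1 alleles carry loxP sites but no Cre, and mutants were Prx1-Cre Bap1f/f mice (Bap1ΔMPC), in which Cre is driven by the Prx1 enhancer in limb mesenchyme and so also in other descendants of that lineage. Live cells lacking CD45, CD31 and Vcam1 and bearing Sca1 were sorted, and 1 library was made per genotype. The labels give limb muscle without naming the limb and the study's isolation method is headed hind limb, so whether forelimb muscle entered either library is not stated. With 1 library per genotype no difference between genotypes could be tested, and every interval below is an exact 95% interval that covers counting error of unique molecular identifiers (UMIs) only.

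Hox genes encode homeodomain transcription factors that lie in the genome in the order in which they are used along the body and limb axes. Genes with low paralog numbers act toward the head and in the anterior trunk, and those with high numbers act posteriorly and in the distal limb. Fibroblasts of adult tissues keep much of the code of the place where they arose. Hoxc10 and Hoxc11 mark hindlimb mesenchyme, and the forelimb regulator Tbx5 and the hindlimb regulators Pitx1 and Tbx4 mark the limb of origin. Bap1 is the catalytic subunit of the deubiquitinase that removes ubiquitin from histone H2A, a mark placed by Polycomb repressive complexes, for which Hox clusters are classic targets.

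Promoter windows in the RefSeq table of build GRCm38.p6 were found for 22 of the 39 members, in 24 windows. The 250 bases before the start are shown for 4 of them. Hoxb4 and Hoxa11 are among the members that differed, in opposite directions, between limb position classes, and Hoxd10 and Hoxd8 are members of HoxD that differed in opposite directions between the libraries. The windows lie at chr11:96318017-96318266 on the plus strand for Hoxb4, chr6:52245811-52246060 on the minus strand for Hoxa11, chr2:74691641-74691890 on the plus strand for Hoxd10 and chr2:74704365-74704614 on the plus strand for Hoxd8. Each is written 5′ to 3′ on the strand of the gene, and capitals mark CpG pairs.
Hoxb4: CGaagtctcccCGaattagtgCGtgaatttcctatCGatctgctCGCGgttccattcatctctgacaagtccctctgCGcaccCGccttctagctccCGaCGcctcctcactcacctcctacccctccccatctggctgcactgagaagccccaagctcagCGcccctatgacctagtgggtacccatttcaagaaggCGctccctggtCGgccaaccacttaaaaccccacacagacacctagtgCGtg
Hoxa11: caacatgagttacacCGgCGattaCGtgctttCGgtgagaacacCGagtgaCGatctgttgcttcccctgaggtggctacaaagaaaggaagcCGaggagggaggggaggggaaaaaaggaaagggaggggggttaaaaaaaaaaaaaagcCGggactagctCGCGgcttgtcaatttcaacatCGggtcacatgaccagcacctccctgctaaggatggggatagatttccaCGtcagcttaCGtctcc
Hoxd10: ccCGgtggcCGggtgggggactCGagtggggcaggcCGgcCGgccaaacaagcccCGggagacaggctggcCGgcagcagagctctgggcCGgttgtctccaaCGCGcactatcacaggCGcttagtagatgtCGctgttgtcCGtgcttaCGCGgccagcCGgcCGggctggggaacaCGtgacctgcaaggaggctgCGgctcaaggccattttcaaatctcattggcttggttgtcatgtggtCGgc
Hoxd8: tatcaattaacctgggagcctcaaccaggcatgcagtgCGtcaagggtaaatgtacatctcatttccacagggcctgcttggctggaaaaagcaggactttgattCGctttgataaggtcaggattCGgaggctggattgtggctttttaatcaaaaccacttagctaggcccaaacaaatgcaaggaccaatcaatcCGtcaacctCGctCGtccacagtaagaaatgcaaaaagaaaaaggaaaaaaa
The Hoxd10 window held 20 CpG pairs, that of Hoxb4 14, that of Hoxa11 13 and that of Hoxd8 6. The median was 12.5 over the 24 Hox windows and 6.00 over all 32851 windows of the table, so the Hoxd8 window was at the level of the table and the other 3 were above it. The Hox-Pbx motif TGATTNAT, searched on both strands, was present in 2 of the 24 Hox windows (8.33%) and in 2.82% of all windows. The Meis motif TGACAG was present in 2 (8.33%) against 15.9% of all windows. No match of one motif overlapped a match of the other in the Hox windows. Hoxb4, Hoxa11, Hoxd10 and Hoxd8 held neither in the stretch shown, which says only that these letters are not there.

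Depth was alike in the libraries: 4103 cells carried 51015705 UMIs (median 12232 per cell) under the label Bap1WT, and 4378 cells carried 49540066 (median 11017.5) under the label Bap1ΔMPC. The sorted cells were FAPs by their markers: Pdgfra, Ly6a, Cd34, Dcn and Lum summed to 18190 CPM, the UMIs of a gene scaled to a library total of 1000000, in the library labelled Bap1WT and 16263 CPM in the other. The authors had removed cells with high levels of other cell types' markers. Summed marker lists of endothelial, immune, muscle stem, Schwann, tendon, mural, erythroid, myofiber and adipocyte cells lay between 5.04 and 116 CPM. Among them the Schwann list was 27.2 and 78.4 CPM, with Sox10 at 0 UMIs in the library labelled Bap1ΔMPC, and the adipocyte list was 5.04 and 53.6 CPM, with Cidec at 0 UMIs in the library labelled Bap1WT. Their part in the Hox differences was not tested. The libraries shared 5 cell barcodes. Doublets had been gated out by the authors, and a doublet caller run on the deposited cells marked 3 and 1. Bap1 itself gave 17.6 CPM in the library labelled Bap1WT and 21.6 CPM in that labelled Bap1ΔMPC, so the level of its 3′ reads was not lower in the latter. Reads from the 3′ end need not include the deleted exons and do not check the deletion, and the libraries are named here by their labels throughout.

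Hox transcripts were sparse. They gave 11200 UMIs (220 CPM) in the library labelled Bap1WT and 9079 UMIs (183 CPM) in the library labelled Bap1ΔMPC, a log2 ratio of -0.26 (interval -0.30 to -0.22). A UMI marks a transcript's 3′ end, so these CPM values are not divided by gene length. HoxC was the leading cluster, at 120 and 109 CPM, followed by HoxA at 65.7 and 46.8, HoxD at 25.7 and 18.9, and HoxB with 413 and 446 UMIs (0.15, -0.04 to 0.35). A single member carried much of each sum: Hoxc10 gave 44.9% and 44.8% of the HoxC UMIs, Hoxa10 53.9% and 56.1% of those of HoxA, and Hoxd8 59.0% and 52.1% of those of HoxD. In HoxB the leading member was Hoxb2 (51.3%) in the library labelled Bap1WT and Hoxb4 (36.8%) in the library labelled Bap1ΔMPC. Paralogs 9 to 13 gave 148 and 119 CPM, paralogs 4 to 8 gave 63.9 and 58.2 CPM, and paralogs 1 to 3 only 8.02 and 5.91 CPM.

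Of the 39 members, 20 had at least 100 UMIs over both libraries, namely 6 of HoxA, 3 of HoxB, 7 of HoxC and 4 of HoxD. Hoxc10, a posterior gene used in lumbar and hindlimb mesenchyme, stood first at 53.9 CPM (interval 51.9 to 55.9) in the library labelled Bap1WT and 48.6 CPM (46.7 to 50.6) in the library labelled Bap1ΔMPC. Hoxa10, used in the upper segment of the limb, stood next at 35.4 and 26.3 CPM. Then came Hoxc9 at 19.7 and 17.6 CPM, Hoxc6 at 17.1 and 15.4, and Hoxd8 at 15.2 and 9.85. Levels fell sharply at the most posterior paralogs, which act in the autopod or the tail: Hoxa13 had 21 and 12 UMIs, Hoxc13 31 and 13, Hoxd13 7 and 2, and Hoxc12 6 and 0. The counts of 0 for Hoxc12 and Hoxd3 in the library labelled Bap1ΔMPC have an exact upper limit of 0.0745 CPM. The floor of 3 counts used in ratios is 0.0606 CPM there. Another 7 members had 20 to 99 UMIs, 9 had 1 to 19, and Hoxb1, Hoxb13 and Hoxd12 had none in either library. GENCODE M21 places exons of 9 members over those of another gene on the same strand, among them Hoxc10 with Hoxc5, Hoxd3 with Hoxd4, and Hoxd10 and Hoxd11 with the read-through gene Gm28309, and the counts of these members are uncertain to that extent.

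**Figure D1:**
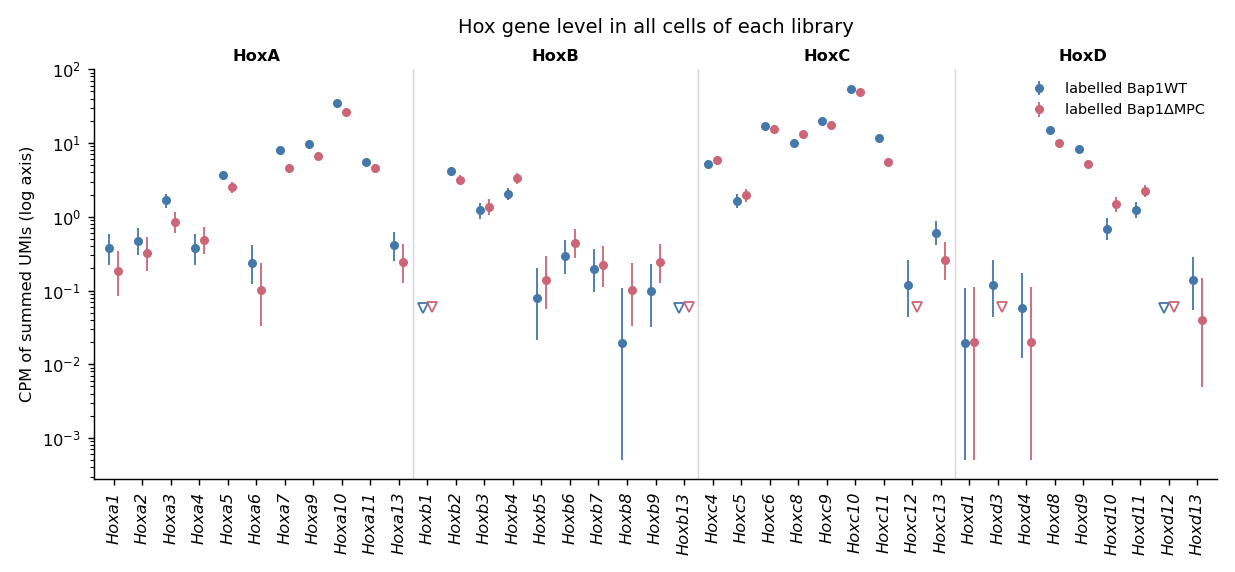
Level of each of the 39 Hox genes in all cells of the library labelled Bap1WT (blue) and that labelled Bap1ΔMPC (red), in CPM of summed UMIs on a log axis, ordered by cluster and paralog number. Points are values with exact 95% Poisson intervals, open triangles mark a count of 0, drawn at the level of 3 counts, and Hoxc10 and Hoxa10 lead in both libraries.

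Cell by cell, 86.4% of cells in the library labelled Bap1WT and 71.5% in the library labelled Bap1ΔMPC held at least 1 Hox UMI. With every cell thinned to 5000 UMIs, which left out 120 and 210 shallower cells, the shares were 64.0% (interval 62.5 to 65.5) and 52.2% (50.7 to 53.8). The mean number of Hox genes seen per thinned cell was 0.994 (SD over cells 0.968) and 0.799 (SD 0.961). Hoxc10 was seen in 21.7% and 17.2% of thinned cells, Hoxa10 in 16.3% and 11.7%, and Hoxd8 in 7.21% and 4.75%. Any HoxB gene was seen in 3.46% (2.92 to 4.08) and 4.56% (3.95 to 5.24), the one cluster for which the share was not lower in the library labelled Bap1ΔMPC. The sort left no cell type that should lack Hox RNA, so a background share from free RNA could not be measured.

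The position code was read within each library by sorting cells on limb regulators. Cells with a Tbx5 UMI and none of Pitx1 or Tbx4 (Tbx5-type) numbered 198 in the library labelled Bap1WT and 595 in the library labelled Bap1ΔMPC. Cells with a Pitx1 or Tbx4 UMI and none of Tbx5 (Pitx1/Tbx4-type) numbered 620 and 641, whereas 41 and 63 cells held both kinds and 3244 and 3079 held neither. Median depths were 12527 and 11268 UMIs in the former class and 14082 and 12223 in the latter. HoxB was higher in Tbx5-type cells, where its sum was 25.7 CPM against 4.12 CPM in Pitx1/Tbx4-type cells of the library labelled Bap1WT, a log2 ratio of 2.64 (2.03 to 3.27). In the library labelled Bap1ΔMPC these sums were 18.7 and 4.99 CPM, a log2 ratio of 1.91 (1.38 to 2.46). HoxC ran the other way, at 70.1 against 128 CPM (-0.87, -1.11 to -0.64) and 345 against 1130 UMIs (-1.50, -1.67 to -1.32). The HoxA sum differed by 0.06 (-0.19 to 0.30) in the library labelled Bap1WT and by -1.12 (-1.35 to -0.90) in the library labelled Bap1ΔMPC, and that of HoxD by 0.22 (-0.16 to 0.59) and -0.56 (-0.88 to -0.24).

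Only HoxA had measured members on both sides of 0 in both libraries. Hoxb2 stood at 12.7 CPM in Tbx5-type and 1.72 CPM in Pitx1/Tbx4-type cells of the library labelled Bap1WT, and at 7.68 and 1.62 CPM in the library labelled Bap1ΔMPC. Hoxb4 stood at 7.52 and 1.26 CPM, and at 6.96 and 1.62 CPM. Both genes act toward the head end of the axis, and in both libraries their intervals in the log2 ratio lay wholly above 0 (Hoxb2 1.96 to 3.87 and 1.35 to 3.24, Hoxb4 1.43 to 3.80 and 1.19 to 3.11). Within HoxA the ratio turned between Hoxa7 and Hoxa10, but it did not follow paralog number throughout. Hoxa3 gave 0.09 (-1.99 to 1.78) in the library labelled Bap1WT and 0.39 (-1.16 to 1.96) in that labelled Bap1ΔMPC. Hoxa5 gave 0.85 (-0.29 to 1.92) and 1.54 (0.43 to 2.76). Hoxa7 was higher in Tbx5-type cells, at 18.6 against 5.04 CPM and 7.68 against 3.37 CPM. Hoxa10 was lower there, at 26.9 against 42.8 CPM and 13.8 against 47.8 CPM. Hoxa11, a gene of the zeugopod, was lower too, at 6 against 61 UMIs (-1.56, -3.06 to -0.35) and at 3 against 89 UMIs (-4.67, -6.98 to -3.08). Hoxa9 lay between them and did not hold its direction, at a log2 ratio of 0.72 (0.15 to 1.27) in the library labelled Bap1WT and -0.59 (-1.19 to 0.00) in that labelled Bap1ΔMPC.

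In HoxC the ratio was below 0 for each of the 7 measured members and lowest for Hoxc11. Hoxc4 gave -0.09 (-1.14 to 0.86) in the library labelled Bap1WT and -0.65 (-1.36 to 0.03) in the library labelled Bap1ΔMPC. Hoxc6 gave -0.80 and -0.96, Hoxc8 -0.90 and -1.26, and Hoxc9 -0.47 and -1.57. Hoxc10 stood at 27.7 against 55.4 CPM and at 19.4 against 67.0 CPM. Hoxc11 gave -1.71 (-2.74 to -0.82) and -3.32 (-5.00 to -2.01), from 11 against 124 UMIs and 5 against 58 UMIs. Of the 9 members with 100 or more UMIs in both classes together in the library labelled Bap1WT, 2 were over 1.5-fold higher in Tbx5-type cells (Hoxa9 and Hoxd8) and 5 were over 1.5-fold lower (Hoxa10, Hoxc6, Hoxc8, Hoxc10 and Hoxc11). The background over 8336 genes was 2.47% higher and 1.94% lower. In the library labelled Bap1ΔMPC, of 8 such members none was higher and 6 were lower (Hoxa9, Hoxa10, Hoxc6, Hoxc8, Hoxc9 and Hoxc10), beside 2.31% and 2.72% of 9132 genes. Hoxb2, Hoxb4, Hoxa7 and Hoxa11 fell below this UMI minimum in both libraries and are outside these counts, and Hoxc11 did so in the library labelled Bap1ΔMPC. Hoxd8, like Hoxa9, did not hold its direction. It gave 0.74 (0.26 to 1.21) in the library labelled Bap1WT and -0.38 (-0.87 to 0.11) in that labelled Bap1ΔMPC. Hoxd9 gave -0.43 (-1.20 to 0.28) and -0.21 (-0.78 to 0.36). Hoxd10 gave 0.20 (-3.14 to 2.69) and -2.43 (-4.41 to -0.89), and Hoxd11 gave -2.38 (-7.76 to 0.28) and -0.99 (-1.94 to -0.11), both on few UMIs.

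**Figure D2:**
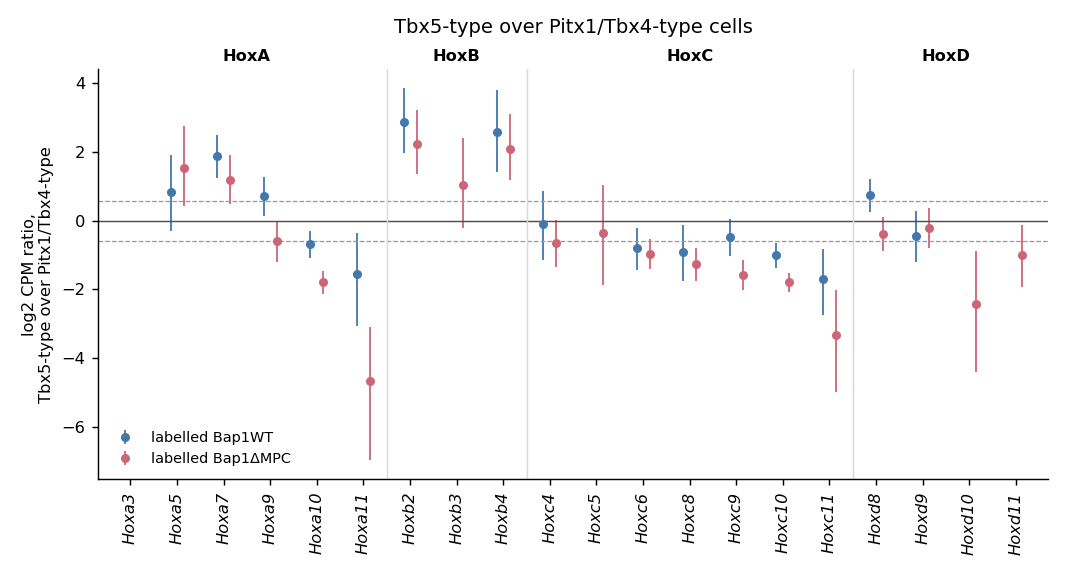
log2 ratio of CPM in Tbx5-type over Pitx1/Tbx4-type cells for the Hox genes with at least 100 UMIs in all, in each library, where the ratio rests on at least 20 UMIs and neither class is at 0. Bars are exact 95% counting intervals and dashed lines mark 1.5-fold, and Hoxb2, Hoxb4 and Hoxa7 lie above 0 and Hoxa10, Hoxa11 and Hoxc11 below it in both libraries.

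The share of Tbx5-type cells among cells with a position call was 24.2% (21.3 to 27.3) in the library labelled Bap1WT and 48.1% (45.3 to 51.0) in the library labelled Bap1ΔMPC. The hindlimb regulators went in opposite directions between the libraries. Tbx5 stood at 6.06 and 19.4 CPM and Tbx4 at 3.84 and 0.646 CPM, but Pitx1, the other hindlimb gene, stood at 13.7 and 19.3 CPM. Different proportions of cells of each limb type in the libraries and different RNA levels per cell cannot be told apart, and any difference between the libraries below holds both.

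Over all cells no Hox gene passed 3-fold between the libraries. Of 20 members that met the minimum of 20 UMIs and a mean above 0.01 UMIs per 10000, 0 were higher and 0 were lower in the library labelled Bap1ΔMPC, where the background over 12380 genes was 1.84% and 1.28%. At 1.5-fold and 100 UMIs, 3 of 20 members were higher and 5 were lower, beside 9.48% and 8.17% of 12388 genes. The median log2 ratio of the 20 members was -0.23, with 7 above 0 and 13 below, and that of all genes was 0.10. Summed by cluster the log2 ratio was -0.49 (-0.56 to -0.41) for HoxA, -0.44 (-0.57 to -0.32) for HoxD, -0.15 (-0.20 to -0.09) for HoxC and 0.15 (-0.04 to 0.35) for HoxB. By paralog class it was -0.44 (-0.66 to -0.22) for 1 to 3, -0.13 (-0.21 to -0.06) for 4 to 8 and -0.31 (-0.36 to -0.26) for 9 to 13, so position along the cluster did not order the differences.

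The 6 measured members of HoxA were all lower in the library labelled Bap1ΔMPC. Hoxa3, an anterior gene, stood at 1.67 CPM in the library labelled Bap1WT and 0.848 CPM in the library labelled Bap1ΔMPC (log2 ratio -0.97, -1.54 to -0.43). Hoxa7 stood at 7.94 and 4.60 CPM (-0.79, -1.03 to -0.55). Hoxa5, Hoxa9, Hoxa10 and Hoxa11 had ratios from -0.53 to -0.30 and did not pass 1.5-fold. Hoxa5 at -0.53 lay just outside that limit and Hoxd8 at -0.62 just inside it. In HoxB, Hoxb4 was higher, at 2.04 and 3.31 CPM (0.70, 0.34 to 1.07), whereas Hoxb2 and Hoxb3 of the same cluster gave -0.38 (-0.69 to -0.08) and 0.15 (-0.37 to 0.68).

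HoxC stayed close to even but for Hoxc11, the last of its abundant members, which stood at 11.8 and 5.61 CPM (-1.08, -1.29 to -0.87). Its neighbour Hoxc10 gave -0.15 (-0.23 to -0.07), and Hoxc8 gave 0.40 (0.23 to 0.57). Hoxc4, Hoxc5, Hoxc6 and Hoxc9 lay between -0.17 and 0.26. HoxD split between adjacent genes. Hoxd8 stood at 15.2 and 9.85 CPM (-0.62, -0.79 to -0.46) and Hoxd9 at 8.25 and 5.23 CPM (-0.66, -0.89 to -0.43). Hoxd10 stood at 0.686 and 1.47 CPM (1.10, 0.50 to 1.73) and Hoxd11 at 1.25 and 2.26 CPM (0.85, 0.39 to 1.32). Hoxd10 and Hoxd11 rest on 35 and 73 and on 64 and 112 UMIs, so their intervals are wide. With no UMI minimum, Hoxb8 (1 and 5 UMIs, interval -0.80 to 7.93) and Hoxd13 (7 and 2 UMIs, -5.07 to 0.63) also passed 3-fold, on counts too low to show a difference.

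**Figure D3:**
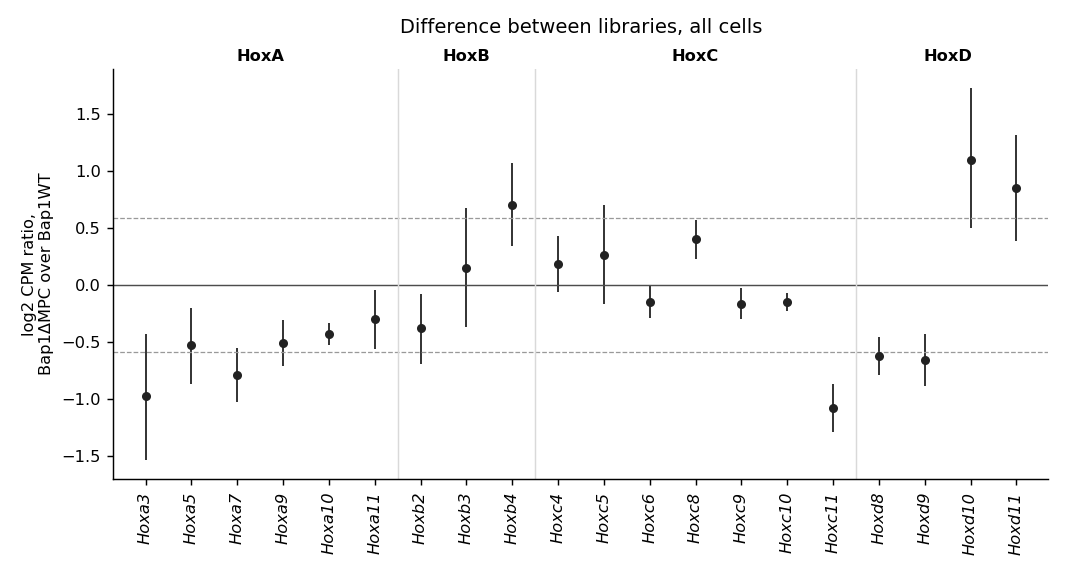
log2 ratio of CPM in the library labelled Bap1ΔMPC over that labelled Bap1WT, over all cells, for the 20 Hox genes with at least 100 UMIs. Bars are exact 95% counting intervals and dashed lines mark 1.5-fold, and Hoxd10 and Hoxd11 stand above 0 while Hoxd8 and Hoxd9 in the same cluster stand below it.

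Within the position classes the libraries were compared at the same limb call, which need not select the same cells in both. Tbx4 was seen in 178 cells of the library labelled Bap1WT and 30 of that labelled Bap1ΔMPC, and Pitx1 in 512 and 682. Within Pitx1/Tbx4-type cells Tbx4 stood at 21.8 and 3.87 CPM and Pitx1 at 73.5 and 107 CPM. Within Tbx5-type cells Tbx5 stood at 96.6 and 125 CPM. In Pitx1/Tbx4-type cells, called on 1 UMI, the cluster sums gave log2 ratios of 0.07 (-0.09 to 0.24) for HoxA, 0.28 (-0.41 to 0.97) for HoxB, 0.14 (0.02 to 0.26) for HoxC and -0.01 (-0.28 to 0.26) for HoxD. With at least 2 UMIs asked for the call, 156 and 171 such cells remained, the HoxC sum was 122 and 178 CPM (0.54) and HoxB had 1 and 8 UMIs. The values that follow are again those of the call on 1 UMI. Of 10 members with 100 or more UMIs, 1 was over 1.5-fold higher in the library labelled Bap1ΔMPC (Hoxa11) and 1 was lower (Hoxc11), beside 8.11% and 5.82% of 9367 genes. Hoxc11 stood at 14.2 and 7.24 CPM (-0.97, -1.45 to -0.51), close to its ratio over all cells, and Hoxa11 at 6.99 and 11.1 CPM (0.67, 0.18 to 1.16). Hoxd10 gave 6 and 25 UMIs (2.18, 0.86 to 3.76) and Hoxd11 gave 18 and 37 UMIs (1.16, 0.31 to 2.06), both in the direction seen over all cells but under the UMI minimum. The median of the 10 members was 0.02 and that of all genes 0.12. All these values pool the cells of the class, and its HoxA and HoxC sums are split further below.

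In Tbx5-type cells every cluster sum was lower in the library labelled Bap1ΔMPC. HoxA stood at 73.2 and 33.9 CPM (-1.11, -1.39 to -0.82), HoxD at 32.1 and 18.6 CPM (-0.79, -1.20 to -0.37), HoxC at 177 and 345 UMIs (-0.49, -0.75 to -0.22) and HoxB at 25.7 and 18.7 CPM (-0.46, -0.90 to -0.01). Only 4 members met the minimum of 100 UMIs. Of these 0 were higher and 3 were lower (Hoxa7 at -1.28, Hoxa10 at -0.97 and Hoxd8 at -1.35), beside 9.43% and 5.62% of 8010 genes. Hoxa9 gave -1.52 (-2.19 to -0.85) on 80 UMIs. Hoxb4, higher over all cells, gave -0.11 (-0.91 to 0.74) in Tbx5-type cells and 0.36 (-0.91 to 1.67) in Pitx1/Tbx4-type cells, intervals that include both no difference and its ratio over all cells. With at least 2 UMIs asked for a position call, 34 and 184 Tbx5-type cells remained and the HoxA ratio was -1.77.

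**Figure D4:**
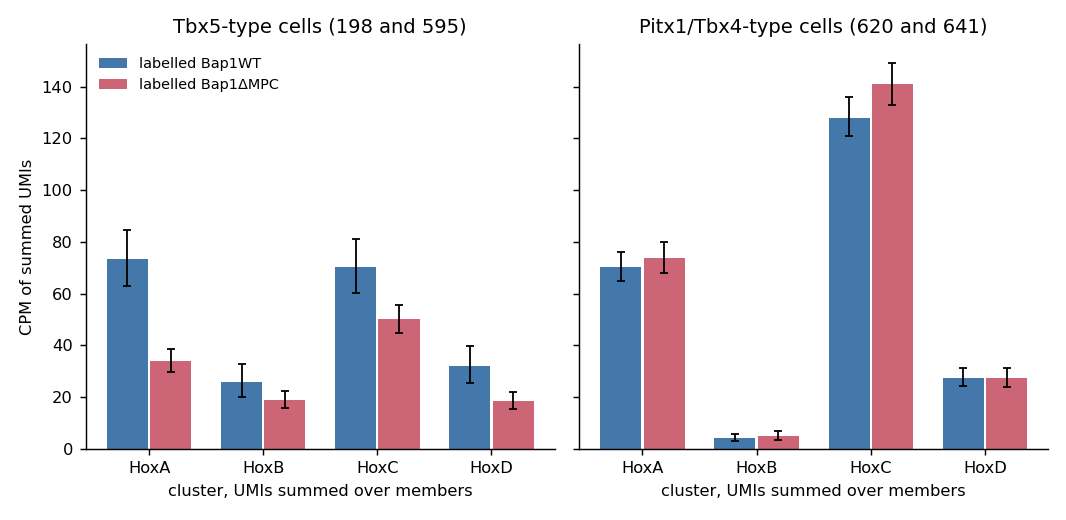
Summed Hox level per cluster in Tbx5-type cells (left) and Pitx1/Tbx4-type cells (right) of the library labelled Bap1WT (blue) and that labelled Bap1ΔMPC (red), in CPM, with cell numbers in the titles. Error bars are exact 95% Poisson intervals, and the HoxA bars differ between libraries in Tbx5-type cells (73.2 and 33.9 CPM) but hardly in Pitx1/Tbx4-type cells (70.3 and 73.9 CPM). Each bar pools all cells of its class.

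Cells with none of the position UMIs gave nearly the same picture as all cells. There Hoxa3 gave -1.35, Hoxa7 -0.91, Hoxc11 -0.94, Hoxd8 -0.62 and Hoxd9 -0.82, and Hoxb4 gave 0.72, Hoxd10 0.92 and Hoxd11 0.60, each on the same side of 0 as over all cells with an interval that left out 0. These cells are most of each library and a mix of limbs that no UMI resolved, and they were examined after the other values were known. The ratios over all cells are thus made largely of the same UMIs, and the genes named are those that passed 1.5-fold there. The likeness is therefore no independent support.

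FAPs fall into a Dpp4-expressing and a Cxcl14-expressing state. A cell was called Dpp4-type at 25 or more UMIs of Pi16, Sema3c, Anxa3 and Efemp1 per 10000, which gave 1050 cells (25.6%) in the library labelled Bap1WT and 1251 (28.6%) in the library labelled Bap1ΔMPC. The score is a range rather than a class with a gap, and 210 and 337 cells scored between 20 and 30. The Cxcl14-type list had medians of 1.11 and 1.38 UMIs per 10000 in Dpp4-type cells and 22.8 and 19.4 in the other cells. Median depth was 13635 and 11661 UMIs in Dpp4-type cells and 11829 and 10733 in the others.

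Dpp4-type and other cells of the library labelled Bap1WT held similar Hox levels. Of 15 members with 100 or more UMIs, 0 were over 1.5-fold higher and 0 lower in Dpp4-type cells, beside 8.68% and 13.2% of 11239 genes. The largest difference among them was that of Hoxc10, at 40.2 CPM in Dpp4-type and 59.1 CPM in other cells (-0.55, -0.69 to -0.42), and Hoxa7 gave 0.51 (0.21 to 0.81). The sums differed by -0.32 (-0.40 to -0.23) for HoxC and by between -0.07 and 0.28 for the other clusters. In the library labelled Bap1ΔMPC, of 16 members 1 was higher (Hoxa7, 0.70, 0.30 to 1.09) and 4 were lower in Dpp4-type cells (Hoxa11, Hoxc8, Hoxc10 and Hoxd11), beside 7.93% and 14.3% of 11317 genes. Hoxc10 stood at 31.6 and 55.9 CPM (-0.82, -0.97 to -0.68) and Hoxd11 at 11 and 101 UMIs (-1.96, -3.01 to -1.06). HoxC differed by -0.62 (-0.72 to -0.53).

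The limb calls were not spread evenly over these states. In the library labelled Bap1ΔMPC 56.8% of the called Dpp4-type cells and 43.7% of the called other cells were Tbx5-type, whereas in the library labelled Bap1WT the shares were 25.6% and 23.4%. Among Pitx1/Tbx4-type cells alone, HoxC was still lower in Dpp4-type cells, at -0.51 (-0.69 to -0.33) in the library labelled Bap1WT and -0.90 (-1.13 to -0.68) in the library labelled Bap1ΔMPC. Hoxc10 gave -0.73 (-1.02 to -0.44) and -1.22 (-1.58 to -0.87) there. Dpp4-type cells were 38.1% of the Pitx1/Tbx4-type cells in the library labelled Bap1WT and 28.1% in that labelled Bap1ΔMPC. In the Dpp4-type cells of this class HoxA stood at 68.5 and 44.0 CPM and HoxC at 102 and 87.1 CPM. In its other cells HoxA stood at 71.5 and 86.0 CPM and HoxC at 145 and 163 CPM. In these CPM values the near-even HoxA and HoxC sums of the class pool opposite directions. The HoxC differences are the smaller ones. No interval was computed for these ratios between libraries, and none was tested. Among Tbx5-type cells the HoxC ratio was 0.71 (0.27 to 1.16) and 0.30 (-0.01 to 0.62), so a lower HoxC sum in Dpp4-type cells was not seen in that limb class. Hoxc10 alone gave 0.82 (0.10 to 1.56) and -0.36 (-0.90 to 0.17) in Tbx5-type cells. Among cells with no position UMI, most of each library, the HoxC ratio was -0.30 (-0.41 to -0.20) and -0.61 (-0.73 to -0.49).

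**Figure D5:**
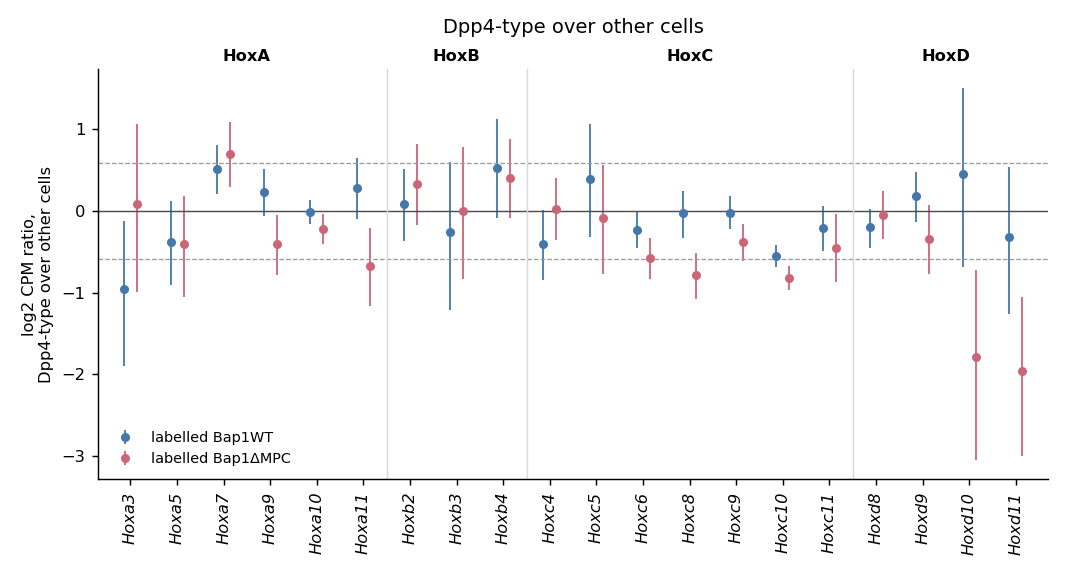
log2 ratio of CPM in Dpp4-type over other cells for the 20 Hox genes with at least 100 UMIs in all, in each library, where the ratio rests on at least 20 UMIs. Bars are exact 95% counting intervals and dashed lines mark 1.5-fold, and the interval of Hoxc10 lies below 0 in both libraries while that of Hoxd11 does so in the one labelled Bap1ΔMPC and spans 0 in the other.

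Between libraries, Dpp4-type cells had 0 members higher and 5 lower of 13 in the library labelled Bap1ΔMPC (Hoxa7, Hoxa9, Hoxa11, Hoxc11 and Hoxd9), beside 6.56% and 7.08% of 10178 genes. The other cells had 2 higher (Hoxb4 and Hoxd11) and 4 lower (Hoxa3, Hoxa7, Hoxc11 and Hoxd8) of 18, beside 10.2% and 7.87% of 11877 genes. Hoxc11 was lower in both states, at 10.6 and 4.47 CPM in Dpp4-type cells (-1.25, -1.69 to -0.82) and at 12.3 and 6.10 CPM in the others (-1.01, -1.26 to -0.77). Hoxa11 stood at 6.38 and 3.18 CPM in Dpp4-type cells (interval of the log2 ratio -1.54 to -0.48) and at 5.26 and 5.09 CPM in the others (-0.35 to 0.25). Hoxd10 and Hoxd11, higher over all cells, were higher in the other cells, at 23 and 65 UMIs (1.58, 0.88 to 2.34) and at 49 and 101 UMIs (1.13, 0.62 to 1.65). In Dpp4-type cells they had 12 and 8 UMIs (-0.65, -2.15 to 0.76) and 15 and 11 UMIs (-0.51, -1.78 to 0.71), intervals that include 0. The differences between the states in these ratios were not tested.

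Pbx, Meis and Pknox proteins are the homeodomain partners with which Hox factors bind DNA. All 9 listed genes met 100 UMIs. Of these, 1 was over 1.5-fold higher in the library labelled Bap1ΔMPC (Pbx4, 1.47 and 2.42 CPM, 0.72, 0.29 to 1.16) and none was lower, beside 9.48% and 8.17% of all genes tested. Meis2 gave -0.40 (-0.51 to -0.30). Of 4 noncoding genes of the clusters that met 100 UMIs, 1 was over 1.5-fold higher and 2 were lower, beside the same shares of all genes. Hotair, transcribed in HoxC near Hoxc11, stood at 106 and 50 UMIs (-1.04, -1.56 to -0.54), Hoxd3os1 in HoxD gave -1.01 (-1.42 to -0.62), and Hoxb3os in HoxB gave 0.67 (0.17 to 1.18). Hotairm1, the other of the 4 that met the minimum, gave -0.31 (-0.59 to -0.04). None of the 8 flanking and paraHox genes (Evx, Cdx, Gsx and Pdx1) met it.

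Of the 20 of 23 listed limb patterning genes with 100 UMIs, 4 were over 1.5-fold higher in the library labelled Bap1ΔMPC and 6 were lower, beside the same 9.48% and 8.17%. Tbx5 stood highest among the position regulators (1.68, 1.49 to 1.87), Alx4 gave 2.03 (1.43 to 2.67), Lmx1b, the dorsal limb regulator, 1.31 (1.03 to 1.60), and Irx5 0.72 (0.33 to 1.11). The 6 that were lower were Tbx4 (-2.57, -3.16 to -2.03), Tbx2 (-1.78), En1, the ventral limb regulator (-1.16), Tbx18 (-1.03), Hand2 (5.08 and 2.54 CPM) and Shox2 (-0.72). Tbx2, En1, Tbx18 and Shox2 were also lower within both position classes, with ratios of -1.90, -1.36, -1.08 and -0.68 in Tbx5-type and -2.29, -1.40, -0.88 and -0.63 in Pitx1/Tbx4-type cells. The higher genes did not all keep their direction within the classes. Irx5 stood at 4.35 and 1.88 CPM in Tbx5-type cells (-1.21, -2.48 to 0.09) and at 2.18 and 4.49 CPM in Pitx1/Tbx4-type cells (1.05, 0.21 to 1.93). Lmx1b stood at 7.92 and 8.12 CPM (0.04, -0.72 to 0.85) and at 3.32 and 10.1 CPM (1.61, 0.98 to 2.27). Alx4 gave 2 and 16 UMIs (1.55, -0.54 to 4.72) and 11 and 26 UMIs (1.36, 0.30 to 2.53). Prrx1, the gene whose enhancer drives the Cre, gave 0.10 (0.06 to 0.13).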

How the data were processed

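Limb muscle FAPs were profiled with the 10x Genomics 3′ kit, v3.1 chemistry, with 1 library per genotype. Per the labels, the submitters' processing notes name Cell Ranger 3.1.0, Seurat 3.2.1 and genome build mm10; the annotation release is not given in the sources used here. The authors deposited raw UMI counts of the cells left by their filters, which keep cells of intermediate gene number (1501 to 4998 genes in the files).

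UMI counts were summed over all cells, or over the cells of a class, and divided by the summed total of all genes to give CPM. Log2 ratios carry exact 95% intervals from the binomial split of the UMIs, levels exact Poisson intervals and shares exact Clopper-Pearson intervals. These cover counting error only. A count of 0 was set to 3 in a ratio, and no ratio is given where both groups have 3 counts or fewer. No test was made, since each genotype has 1 library and cells are not replicates.

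Named with values are members with 100 or more UMIs over both libraries, members over 3-fold with 20 or more, and fixed lists of Hox cofactors, limb patterning genes, flanking genes and noncoding genes of the clusters. The members and lists were chosen with earlier results of these data known. Hoxd4.1, a separate row of the tables, is not a member by the rule. Coordinates and exon overlaps come from GENCODE M21 (GRCm38). Doublets were marked with Scrublet in scanpy 1.11.5 and kept. Python 3.11.15, scipy 1.17.1 and edgeR 4.0.16 (TMM factors on the deposited counts, as an alternative scaling) were used. The ratio, interval and fold-call steps were tested on simulated Poisson sums, which follow the counting model that the intervals assume. Cell calls, thinning and variation between libraries were not simulated. Alternatives were another scaling, cell weights, doublet removal, equal depth, UMI minimums, fold limits, score cuts and position calls.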

Additional observations from a re-analysis of the deposited data

Results flagged for a closer look

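Some members had intervals leaving out 0 in both position classes. Of these, 2 had log2 ratios between the libraries (that labelled Bap1ΔMPC over that labelled Bap1WT) of opposite sign in the classes. Hoxc11, whose intervals also left out 0 in both, was lower in both, at -2.59 in Tbx5-type and -0.97 in Pitx1/Tbx4-type cells. The share of all genes with opposite signs was not computed, so the count of 2 cannot be set beside a background. Hoxa11 gave -2.45 (-5.08 to -0.22) in Tbx5-type cells, from 3 UMIs in the library labelled Bap1ΔMPC and 6 in that labelled Bap1WT, and 0.67 in Pitx1/Tbx4-type cells, from 89 and 61 UMIs. Hoxc10 gave -0.51 in Tbx5-type cells, from 134 and 70 UMIs, and 0.27 in Pitx1/Tbx4-type cells, from 537 and 484 UMIs. The Pitx1/Tbx4-type values pool Dpp4-type and other cells. In the Dpp4-type cells Hoxa11 stood at 8.35 CPM under the label Bap1WT and 4.31 CPM under the label Bap1ΔMPC. Hoxc10 stood at 39.7 and 34.5 CPM there. In the other cells Hoxa11 stood at 6.08 and 13.9 CPM and Hoxc10 at 65.8 and 80.2 CPM. No interval was computed for these splits. The difference between the classes was not tested for either gene, and with 1 library per genotype it cannot be.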

How the results depend on the processing

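With 1 library per genotype, leaving out a replicate was not possible. No paired analysis was possible because the result comes from no test and each group has 1 sample. Restricting cells to a limb class turned signs: between libraries HoxC was -0.15 over all cells and 0.14 in Pitx1/Tbx4-type cells, and for Dpp4-type over other cells of the library labelled Bap1WT it was -0.32 over all cells and 0.71 in Tbx5-type cells. TMM scaling, which put the median of all genes at 0, gave -0.59 for HoxA, -0.24 for HoxC, -0.23 for paralogs 4 to 8, -0.41 for paralogs 9 to 13 and -0.25 for Hoxc10. Under TMM scaling 3 members were over 1.5-fold higher and 7 lower, where CPM gave 3 and 5. Hoxa5 at -0.63 and Hoxa9 at -0.61 then passed the limit, and the median of the members was -0.33. Leaving out the leading member gave 0.56 for HoxB (without Hoxb2), -0.22 for HoxD (without Hoxd8) and -0.41 for paralogs 9 to 13 (without Hoxc10). With no UMI minimum, 2 of 34 members passed 3-fold, and 7 were higher and 12 lower at 1.5-fold. The 12 include Hoxc12 and Hoxd3, which had 0 UMIs in the library labelled Bap1ΔMPC and were called through the floor of 3 counts. At 2-fold, 2 of 20 passed (Hoxd10 higher, Hoxc11 lower). With a score cut of 40, 3 of 15 members differed between Dpp4-type and other cells in the library labelled Bap1WT. In that labelled Bap1ΔMPC 9 of 16 did. The HoxC ratio was -0.46 in the former and the HoxD ratio -0.17 in the latter, and without Efemp1 in the score the HoxC ratio of the latter was -0.73. Shares of all genes at these alternative settings, and at the position call on 2 UMIs below, are not given. None of these counts can be set beside a background. Within Pitx1/Tbx4-type cells, an alternative chosen after seeing the data, the Dpp4-type ratios were -0.06, 0.76, -0.51 and 0.16 for HoxA, HoxB, HoxC and HoxD in the library labelled Bap1WT, and -0.97, -0.90 and -0.69 for HoxA, HoxC and HoxD in that labelled Bap1ΔMPC. With 2 UMIs for a position call, 1 and 2 members passed 1.5-fold between classes, since only 2 members met the UMI minimum in each library, and the Tbx5-type share was 17.9% and 51.8%. The ratio between libraries was then -1.77 for HoxA and -0.91 for HoxC in Tbx5-type cells, and 0.54 for HoxC and 3.01 for HoxB in Pitx1/Tbx4-type cells, the last from 1 and 8 UMIs. With Pitx1 alone as the hindlimb gene the share in the library labelled Bap1WT was 30.0%. Hox genes per cell were 0.63 and 0.51 at 3000 UMIs and 2.10 and 1.52 without thinning. The cause of the other shifts was not tested. Depth limits the HoxB genes, Hoxa11, Hoxd10 and Hoxd11 within classes, which rest on few UMIs.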
